A study of Mus musculus with 6 samples.

Results

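The genes described here are the Wnt ligands (Wnt), their Frizzled receptors (Fzd), the secreted antagonists of the Dkk and Sfrp families, the R-spondins (Rspo) with their Lgr receptors, the ubiquitin ligases Znrf3 and Rnf43, and the intracellular genes Ctnnb1, Axin1, Axin2, Lef1, Tcf7, Tcf7l1 and Tcf7l2. They were found by symbol through the RefSeq accession that each array probe carries, and the brightest probe stood for a gene. The rule, which uses no measured difference, gave 53 of the 17235 genes that could be named on the array. Of these, 49 passed the filter on dim probes, which asked for a signal well above background on at least 2 arrays, and they were tested among 26395 features. Those features were 15235 named genes and 11160 transcripts without a gene name. Dkk4, Wnt3a and Wnt8a were well above background on no array and Wnt10b on 1 array, so they were not tested. Of the 49 tested genes, 45 were well above background on all 6 arrays.

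Whole embryonic kidneys of mice, a hybrid of 129 and C57BL/6, were taken at E14.5 (E, embryonic day), and the RNA of each sample was hybridised to a one-colour Agilent array. Sall1, the gene deleted, encodes a transcription factor with zinc fingers that nephron progenitors make. In the Six2Cre line, which deletes floxed Sall1 in nephron progenitors, and so in their descendants, while other kidney cells keep the gene, there were 2 knockout arrays (numbers 7 and 9) and 2 control arrays (numbers 5 and 2). In the inducible line, which the series title calls Sall1CreERfSall1, there was 1 knockout array (CreER/flox) and 1 control array (wt/flox). These kidneys were collected 48 hours after tamoxifen, which was given at E12.5. The line of each array was read from the style of its title together with the design text. The labels mention tamoxifen for every sample, and they leave unsaid if Cre was present in the Six2Cre controls and if each array is a separate embryo, so the p-values measure only the spread between these samples. CreER is named for the inducible knockout alone, and its effect cannot be told apart from that of losing Sall1.

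Wnt proteins are secreted signals that bind Frizzled receptors together with Lrp5 or Lrp6, which keeps β-catenin (the product of Ctnnb1) from being destroyed and lets it act with Tcf and Lef factors on target genes. In the embryonic kidney, Wnt9b from the ureteric bud acts on the nephron progenitors around it. These progenitors then switch on Wnt4, which they need to turn into the epithelium of the nephron. R-spondins bind Lgr receptors and take Znrf3 and Rnf43 off the cell surface, which keeps more Frizzled there, while Dkk proteins block Lrp5 and Lrp6 and Sfrp proteins bind Wnts outside the cell.

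All levels below are log2 signals relative to the 75th percentile of the same array, so a level says nothing about how one gene stands against another. Sall1 itself read -2.65 and -2.00 in the Six2Cre knockouts, against -1.38 and -0.77 in their controls, and -4.06 in the CreER knockout, against -1.28 in its control; whether this probe lies inside the floxed stretch was not checked. Slide 1 held Six2Cre knockout 7 and control 5, and slide 2 held the other 4 arrays, so each Six2Cre comparison could also be made within a slide. Six2Cre control 2 stood apart in skeletal muscle markers, whose summed signal (in units of the 75th percentile) was 2.06 and 1.63 in the Six2Cre knockouts, against 1.58 in control 5 and 40.8 in control 2, and 3.21 in the CreER knockout, against 1.40 in its control. Every slide 1 difference below is free of that array. The CreER knockout array had the highest floor of detection. Its lowest signal well above background was 20.9, against 7.38 to 8.67 on the other 5 arrays. On it 71.6% of probes were well above background, against 79.9% to 82.9% on the others. Genes below the floor could read higher there: Dkk4 read -8.69, against -10.43 in the CreER control, and Wnt8a -8.60, against -10.37. Wnt3a read -8.68, against -8.73.

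In kidneys whose nephron progenitors lacked Sall1, the Wnt genes had a median difference near 0, while some of them differed from control by at least 0.5 log2 on both slides. The antagonist Dkk1, the R-spondin receptor Lgr5 and the ligands Wnt6 and Wnt10a read lower in the knockouts of both lines, and so, in the Six2Cre line, did Wnt4, Fzd4, Fzd9, Rspo1 and Tcf7. The antagonist Sfrp4, the R-spondin Rspo2 and the ligands Wnt2, Wnt2b and Wnt9a read higher in the Six2Cre knockouts. Dkk1 had 3.32-fold less signal and Sfrp4 3.85-fold more. The inducing ligand Wnt9b, and Ctnnb1, Axin2 and Lef1, whose products act inside the responding cell, were not among the genes that differed by that much on both slides. In whole kidneys, fewer cells of a type and less RNA per cell cannot be told apart.

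With limma over all features, 0 of the 49 Wnt genes and 0 of 26395 features (0%) passed an adjusted p of 0.05 in the Six2Cre line, in either direction. At an unadjusted p under 0.05 there were 8 Wnt genes and 1666 features. For description, a gene was therefore called lower or higher in both slide pairs when knockout minus control was at least 0.5 log2 in the same direction on slide 1 and on slide 2. By this rule 9 of 49 Wnt genes (18.4%) were lower, against 3.88% of all features, and 5 (10.2%) were higher, against 5.77% of all features. With each array centred on its median in place of the 75th percentile, 4 of 49 were lower, against 3.43% of all features. These were Dkk1, Lgr5, Tcf7 and Wnt6. Wnt10a, Wnt4, Fzd4, Rspo1 and Fzd9, with slide 1 differences of -0.60 to -0.52 as first computed, then fell short on slide 1. The median Six2Cre difference was 0.04 log2 over the Wnt genes and 0.03 over all features.

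When slide was fitted as a block and the spread was estimated as a robust trend on the signal level, 3 Wnt genes passed with lower signal in the Six2Cre knockouts (6.12%), against 1.22% of all features, and 2 with higher signal (4.08%), against 1.15%. They were Dkk1 (limma adjusted p = 0.00495), Lgr5 (0.0250) and Wnt6 (0.0311) among the lower and Sfrp4 (0.00656) and Wnt2 (0.0195) among the higher. With the slide block alone, without the trend, 0 Wnt genes passed. At an unadjusted p under 0.05 there were then 15 of 49 Wnt genes and 3052 of 26395 features.

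**Figure D1:**
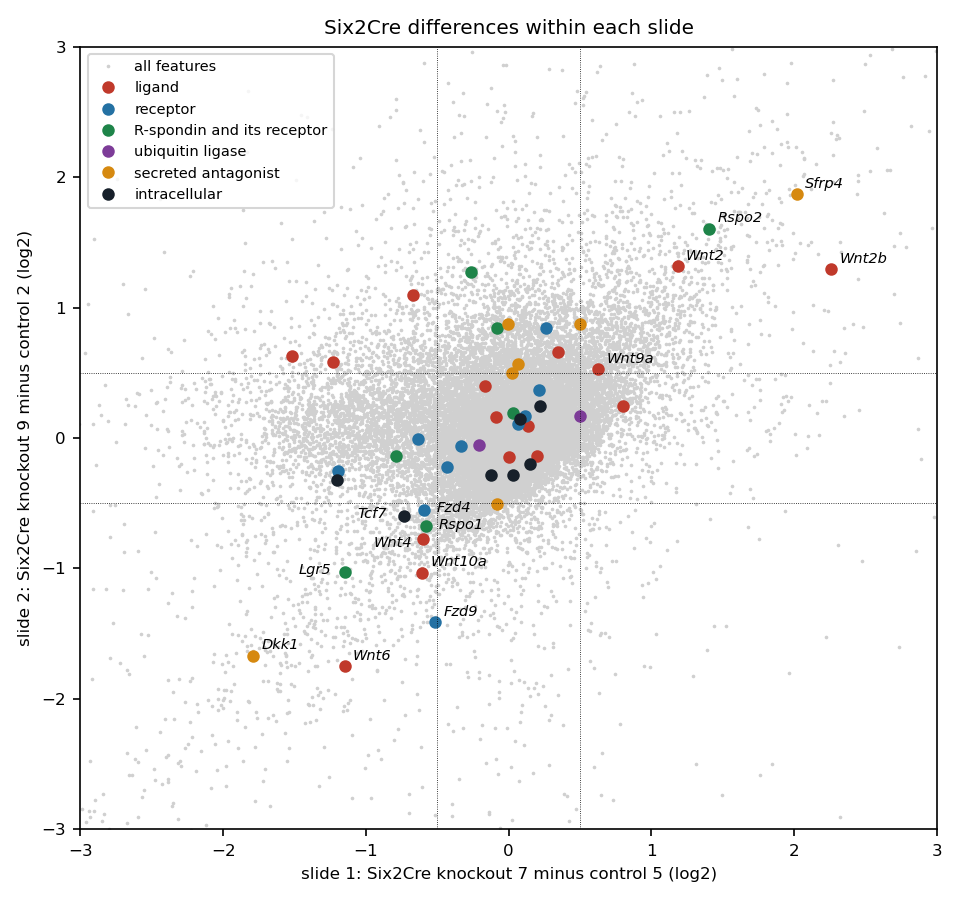
Knockout minus control (log2) in the Six2Cre line, slide 1 on the horizontal axis and slide 2 on the vertical axis; grey dots are all 26395 features (those beyond 3 log2 are not drawn), coloured points are the 49 Wnt genes by role, and dotted lines mark 0.5 log2. The 9 labelled genes at lower left and the 5 at upper right are those called in both slide pairs, with Dkk1 at -1.79 and -1.67 and Sfrp4 at 2.02 and 1.87.

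The promoters of Dkk1, Wnt6, Wnt4 and Wnt2 are printed because these genes differed by at least 0.5 log2 on both slides and span both directions. Each is the RefSeq stretch of 300 bases, 250 before to 50 after the annotated start, on build GRCm38.p6, written 5′ to 3′ along the gene's strand. Capitals mark matches to the words that begin with CTTTG and end in AA, AT, TA or TT, which are words that Tcf and Lef factors are known to bind, searched on both strands. Dkk1 lies at chr19:30549447-30549746 on the minus strand, Wnt6 at chr1:74771642-74771941 on the plus strand, Wnt4 at chr4:137277385-137277684 on the plus strand and Wnt2 at chr6:18030396-18030695 on the minus strand.
Dkk1: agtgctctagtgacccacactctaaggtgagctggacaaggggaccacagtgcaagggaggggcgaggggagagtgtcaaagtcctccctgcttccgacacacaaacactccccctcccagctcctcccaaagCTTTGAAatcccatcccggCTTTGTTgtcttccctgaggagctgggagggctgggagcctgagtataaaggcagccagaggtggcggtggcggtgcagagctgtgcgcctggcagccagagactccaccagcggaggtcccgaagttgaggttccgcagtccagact
Wnt6: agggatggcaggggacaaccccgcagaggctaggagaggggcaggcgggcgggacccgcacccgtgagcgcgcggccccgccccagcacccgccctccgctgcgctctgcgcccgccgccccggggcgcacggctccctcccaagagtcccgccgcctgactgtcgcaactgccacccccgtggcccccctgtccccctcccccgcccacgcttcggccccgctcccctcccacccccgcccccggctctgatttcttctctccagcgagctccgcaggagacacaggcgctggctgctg
Wnt4: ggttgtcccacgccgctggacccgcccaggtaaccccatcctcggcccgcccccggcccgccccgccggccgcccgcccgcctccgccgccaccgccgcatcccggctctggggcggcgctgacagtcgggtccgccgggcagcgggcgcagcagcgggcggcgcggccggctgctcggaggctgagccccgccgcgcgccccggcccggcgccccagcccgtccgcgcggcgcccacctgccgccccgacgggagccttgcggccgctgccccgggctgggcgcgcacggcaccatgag
Wnt2: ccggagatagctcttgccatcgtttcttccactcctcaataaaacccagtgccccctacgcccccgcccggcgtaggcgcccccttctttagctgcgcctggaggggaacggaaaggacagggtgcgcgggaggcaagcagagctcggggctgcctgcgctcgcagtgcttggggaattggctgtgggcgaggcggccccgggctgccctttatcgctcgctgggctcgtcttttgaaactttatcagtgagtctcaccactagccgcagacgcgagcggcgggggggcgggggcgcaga
Of these 4 promoters, that of Dkk1 held 2 matches, CTTTGAA and CTTTGTT, and the others held none. In all, 16.9% of the 32851 RefSeq promoters held at least 1 match, and 15.2% of the 46 promoters found for 36 of the Wnt genes. Among the 16 genes given on all arrays below, 12 had a promoter in the table, and Dkk1 was the 1 that held a match. A match describes these letters in this window and says nothing about binding.

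Among the ligands, 16 were measured, of which 3 were lower and 3 higher in both slide pairs. Over all features the shares were 3.88% lower and 5.77% higher. Wnt6, which the ureteric bud is known to make, read -2.98 and -3.02 in the Six2Cre knockouts, against -1.83 and -1.27 in their controls. In the CreER pair it read -2.41 in the knockout, against -1.37 in the control. The knockout arrays lay below the control arrays in each line, with no overlap. The Six2Cre difference was -1.45 (SE 0.30, limma adjusted p = 0.326), or 2.73-fold lower, and the CreER difference was -1.04, or 2.05-fold lower.

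Wnt10a, a canonical ligand known from skin and teeth, is the gene next to Wnt6 on chromosome 1 in the RefSeq annotation. It read -3.56 and -3.93 in the Six2Cre knockouts, against -2.95 and -2.90 in their controls, and -3.22 in the CreER knockout, against -2.59 in its control. It too was lower in all 3 pairs, with differences of -0.60, -1.03 and -0.62, though the Six2Cre test gave -0.82 (SE 0.27, limma adjusted p = 0.664). Of the other neighbouring pairs of Wnt genes, Wnt9b and Wnt3 were both measured and differed by 0.52 and -0.45 in the Six2Cre line.

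Wnt4, the signal that nephron progenitors make as they become epithelium, read 0.22 and 0.75 in the Six2Cre knockouts, against 0.82 and 1.52 in their controls. The lowest control lay just above the highest knockout, and the difference was -0.68 (SE 0.37, limma adjusted p = 1.00). Without control 2 it was -0.33, without control 5 it was -1.04, and without knockout 7 it was -0.42. In the CreER pair the order was the other way, with 1.75 in the knockout and 1.37 in the control.

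Wnt2, a canonical ligand known for its part in lung development, was on the higher side. It read -0.52 and -0.20 in the Six2Cre knockouts, against -1.71 and -1.52 in their controls, and -1.39 in the CreER knockout, against -1.76 in its control. The Six2Cre arrays were well separated, with a difference of 1.25 (SE 0.27, limma adjusted p = 0.345), or 2.38-fold higher, and the CreER difference was 0.37.

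Wnt2b, a ligand known from kidney stroma, read -6.02 and -5.57 in the Six2Cre knockouts, against -8.28 and -6.87 in their controls. This is near background, and the gene was well above it on both knockouts and on 1 of 2 controls. The difference of 1.78 (SE 0.54, limma adjusted p = 0.602) was 1.07 without control 5 and 0.45 with normexp background correction. In the CreER line it read -6.51 in the knockout, where it was not well above background, against -7.46 in the control.

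Wnt9a read -2.44 and -2.11 in the Six2Cre knockouts, against -3.07 and -2.64 in their controls, a difference of 0.58 (SE 0.30, limma adjusted p = 1.00) that was 0.36 without control 5. The groups did not overlap in this line, but in the CreER pair the knockout was the lower array, at -3.04, against -2.84 in the control.

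A pair of ligands entered through the CreER pair alone, which has no replicate check. Wnt8b read -3.58 in the CreER knockout, against -4.85 in the control, and -5.28 and -4.42 in the Six2Cre knockouts, against -5.12 and -4.82 in their controls. Wnt7a, known from neural tissue, limb and the female reproductive tract, read -5.51 in the CreER knockout, against -6.69 in the control, and -6.77 and -6.30 in the Six2Cre knockouts, against -7.12 and -6.96 in their controls. The Six2Cre arrays of Wnt8b overlapped, while those of Wnt7a did not. Wnt7a was dim, and the floor of detection was -6.42 on the CreER knockout array, against -8.12 to -7.87 on the other 5. With normexp the CreER difference of Wnt7a was 0.63, in place of 1.19.

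The other ligands of a known role in the kidney did not meet the criterion. Wnt9b, the inducing signal of the ureteric bud, read -0.18 and -0.03 in the Six2Cre knockouts, against -0.98 and -0.28 in their controls, and -0.26 in the CreER knockout, against -0.27 in its control. The Six2Cre knockouts were the higher arrays, yet by 0.25 on slide 2, which is under 0.5. Wnt11, which the ureteric tips make and which acts in branching, read 1.01 and 0.63 in the Six2Cre knockouts, against 1.01 and 0.78 in their controls, and 0.64 in the CreER knockout, against 1.05 in its control. Wnt7b, the signal of the ureteric stalk for the medulla, read -1.62 and -1.46 in the Six2Cre knockouts, against -1.82 and -1.32 in their controls, and -1.18 in the CreER knockout, against -1.19 in its control. The Six2Cre arrays of Wnt11 and of Wnt7b overlapped. Wnt5a, a non-canonical ligand, read -5.02 and -3.71 in the Six2Cre knockouts, against -3.79 and -4.30 in their controls, so that slide 1 had the knockout lower and slide 2 had it higher. Of the last 4 ligands, Wnt5b differed by 0.14 on slide 1 and 0.09 on slide 2, Wnt1 by -0.09 and 0.16, and Wnt16 by -0.67 on slide 1 with the knockout the higher array on slide 2, while Wnt3 was well above background on 2 arrays only.

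Of the 10 Frizzled receptors, 2 were lower in both slide pairs, against 3.88% of all features, and 0 were higher, against 5.77%. Fzd9 read -3.77 and -3.70 in the Six2Cre knockouts, against -3.25 and -2.28 in their controls, and -3.31 in the CreER knockout, against -3.15 in its control. The knockouts lay below both controls, but the controls lay far apart: the difference of -0.96 (SE 0.40, limma adjusted p = 0.848) was -0.48 without control 2 and -1.45 without control 5. Fzd4, which also serves as the receptor of Norrin, read 0.22 and 0.68 in the Six2Cre knockouts, against 0.81 and 1.23 in their controls, and 0.96 in the CreER knockout, against 1.32 in its control. Its difference was -0.57 (SE 0.31, limma adjusted p = 1.00), and -0.36 without control 2 or -0.34 without knockout 7. The median of the 10 receptors was -0.26 in the Six2Cre line and -0.03 in the CreER pair. With its brightest probe Fzd7 differed by 0.26 on slide 1 and 0.85 on slide 2, and Fzd5 by -1.19 and -0.25, so each passed 0.5 log2 on 1 slide. With another probe Fzd7 differed by -0.01 and 0.25, and Fzd5 by -0.38 and -0.01, so neither passed. The Six2Cre differences of Fzd1, Fzd2, Fzd3, Fzd6, Fzd8 and Fzd10 lay between -0.33 and 0.29. A second Fzd10 probe gave -1.91 on slide 1 and -0.04 on slide 2.

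In the R-spondin branch, 7 genes were measured. Lgr5, an R-spondin receptor that is itself a widely used Wnt target, read -1.39 and -1.16 in the Six2Cre knockouts, against -0.24 and -0.13 in their controls. It read -1.19 in the CreER knockout, against -0.39 in its control. All 3 knockout arrays lay below all 3 control arrays, with a Six2Cre difference of -1.09 (SE 0.25, limma adjusted p = 0.402), or 2.13-fold lower, and a CreER difference of -0.80. Rspo1, an R-spondin of the nephron lineage, read 3.36 and 3.37 in the Six2Cre knockouts, against 3.94 and 4.05 in their controls. The difference was -0.63 (SE 0.24, limma adjusted p = 0.793), while the CreER pair was closer, with 3.88 in the knockout and 4.01 in the control.

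Rspo2 went the other way. It read -3.22 and -3.10 in the Six2Cre knockouts, against -4.62 and -4.71 in their controls, and -5.91 in the CreER knockout, against -6.88 in its control. Each knockout lay above its control, and the Six2Cre difference was 1.51 (SE 0.24, limma adjusted p = 0.209), or 2.84-fold higher. With normexp the difference was 0.97 in the Six2Cre line and 0.44 in the CreER pair, against 0.97 in the CreER pair as first computed. Rspo3 read -3.93 and -3.71 in the Six2Cre knockouts, against -3.14 and -3.57 in their controls, and -4.58 in the CreER knockout, against -3.65 in its control; the knockout was the lower array in each pair, by 0.14 on slide 2. Lgr4, the Lgr receptor that the kidney needs for normal growth, read 1.01 and 0.42 in the Six2Cre knockouts, against 0.98 and 0.23 in their controls, and the arrays overlapped. Lgr6 and Rspo4, the last of this branch, differed by 0.38 and 0.51 in the Six2Cre line, both with the slides on opposite sides of 0.

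The ubiquitin ligases that R-spondins remove did not meet the criterion. Rnf43 read 0.97 and 0.74 in the Six2Cre knockouts, against 0.47 and 0.57 in their controls, and 0.54 in the CreER knockout, against 0.49 in its control. Znrf3 read -1.09 and -1.91 in the Six2Cre knockouts, against -0.88 and -1.86 in their controls, and -2.09 in the CreER knockout, against -1.94 in its control. The Six2Cre arrays of Rnf43 did not overlap, whereas those of Znrf3 lay together by slide and not by genotype.

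Among the 7 secreted antagonists measured, Dkk1 and Sfrp4 differed most, in opposite directions. Dkk1, which blocks the Lrp5 and Lrp6 co-receptors and is also a Wnt target, read -0.18 and -0.15 in the Six2Cre knockouts, against 1.61 and 1.52 in their controls. It read -0.58 in the CreER knockout, against 1.44 in its control. The 3 controls lay within a narrow band well above all 3 knockouts. The Six2Cre difference was -1.73 (SE 0.24, limma adjusted p = 0.172) and the CreER difference was -2.02, or 4.07-fold lower. A second Dkk1 probe gave -1.76 on slide 1, -1.61 on slide 2 and -2.15 in the CreER pair.

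Sfrp4, which binds Wnt proteins outside the cell, read -0.55 and -0.09 in the Six2Cre knockouts, against -2.57 and -1.96 in their controls. It read -2.07 in the CreER knockout, against -3.00 in its control. Both Six2Cre knockouts lay above every other array, and the CreER knockout lay within the range of the Six2Cre controls. The Six2Cre difference was 1.95 (SE 0.35, limma adjusted p = 0.254) and the CreER difference was 0.92.

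Sfrp1, another such decoy, read 1.27 and 2.33 in the Six2Cre knockouts, against 0.77 and 1.45 in their controls, and 1.85 in the CreER knockout, against 1.39 in its control. The knockout was higher in each pair, but the Six2Cre groups overlapped because both arrays of slide 2 read higher than those of slide 1. On slide 1 the difference was 0.497, just under 0.5, and a second Sfrp1 probe gave 0.78 on slide 1, 1.05 on slide 2 and 0.20 in the CreER pair. Sfrp2 read 2.96 and 2.66 in the Six2Cre knockouts, against 2.94 and 2.16 in their controls, and 1.96 in the CreER knockout, against 1.89 in its control. The arrays of Sfrp2 overlapped as well. Dkk2 read 0.77 and 1.14 in the Six2Cre knockouts, against 0.77 and 0.27 in their controls, Dkk3 differed by 0.06 on slide 1 and 0.57 on slide 2, and Sfrp5 by -0.08 and -0.51.

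**Figure D2:**
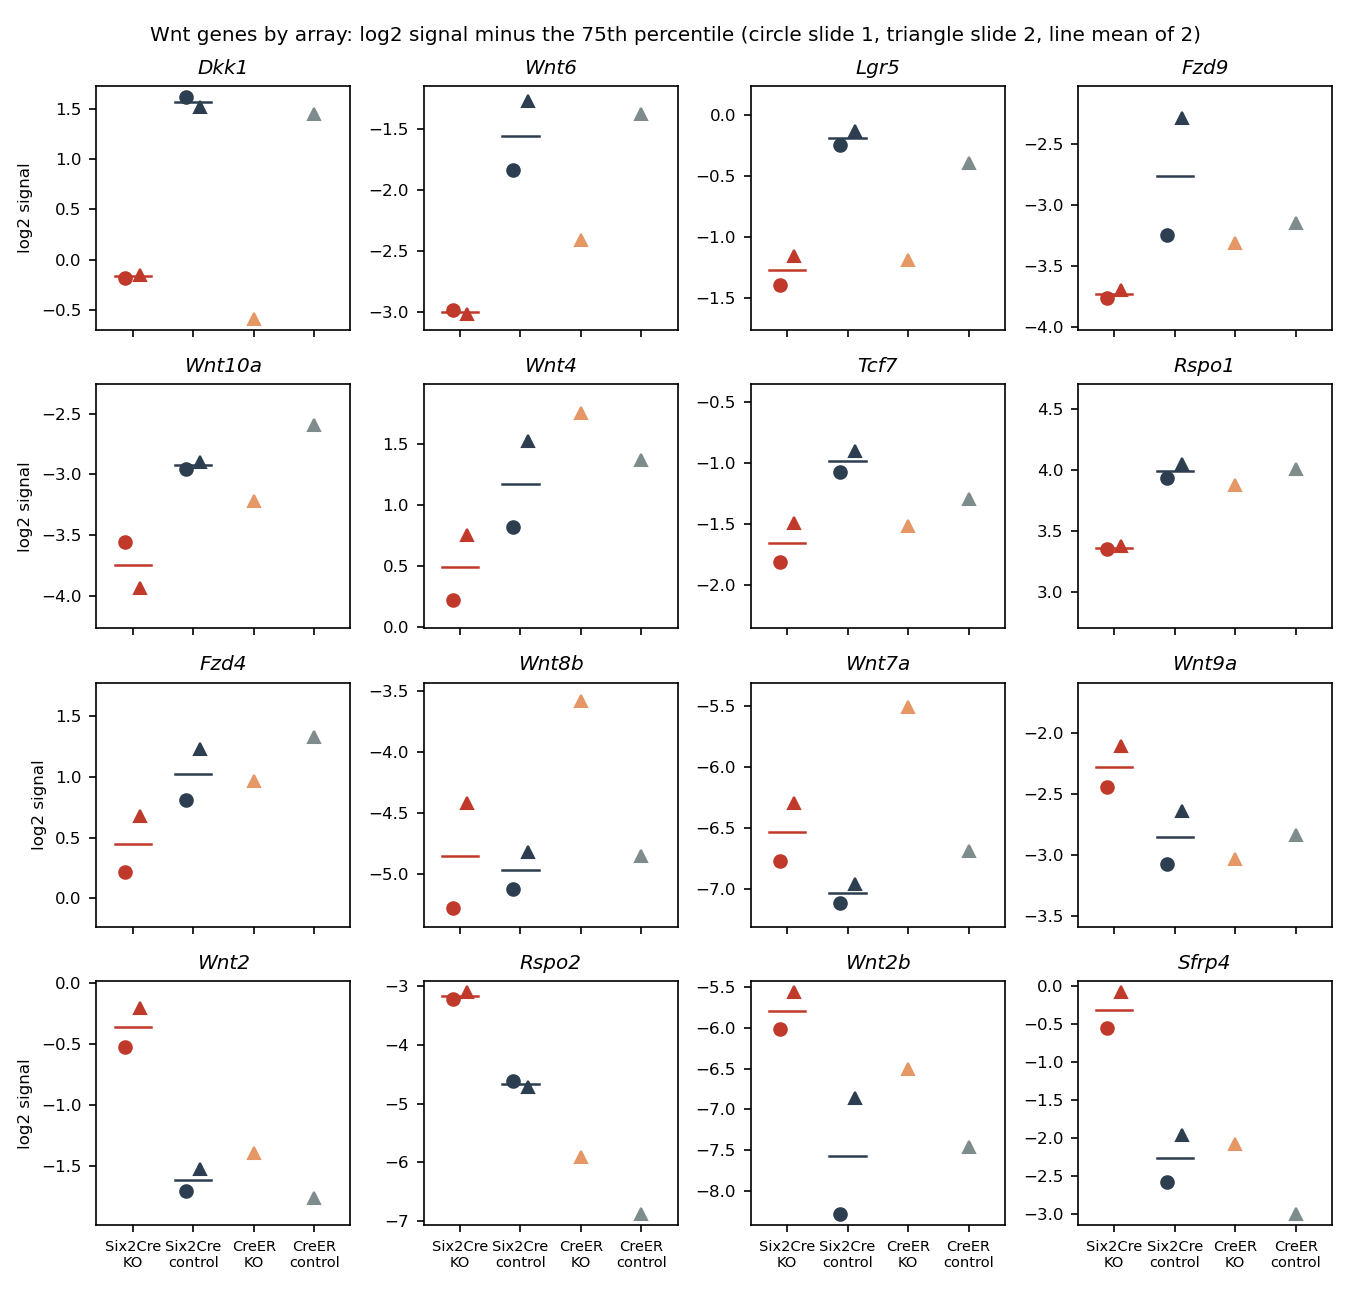
Log2 signal minus the array's 75th percentile on the vertical axis (each panel has its own scale) for the 16 genes given on all arrays, with groups on the horizontal axis: Six2Cre knockout, Six2Cre control, CreER knockout and CreER control; points are arrays, circles slide 1 and triangles slide 2, and lines are means of 2. Dkk1 lies between -0.58 and -0.15 in the 3 knockouts, and between 1.44 and 1.61 in the 3 controls.

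Among the 7 intracellular genes, Tcf7, a transcription factor that β-catenin works through, was the 1 lower in both slide pairs. It read -1.81 and -1.49 in the Six2Cre knockouts, against -1.08 and -0.90 in their controls, and -1.51 in the CreER knockout, against -1.29 in its control. The groups did not overlap, and the difference was -0.67 (SE 0.27, limma adjusted p = 0.826). A second Tcf7 probe gave -0.75 on slide 1 and -0.20 on slide 2. Tcf7l1, which mostly acts as a repressor, differed by -1.20 on slide 1 and -0.32 on slide 2 with its brightest probe, and by 0.05 and -0.56 with another.

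Axin2, the most used readout of Wnt signalling, read -0.39 and -1.46 in the Six2Cre knockouts, against -0.61 and -1.70 in their controls, and -1.81 in the CreER knockout, against -1.97 in its control. The knockout was the higher array in each pair, by 0.22 on slide 1, 0.25 on slide 2 and 0.16 in the CreER pair, which is less than the gap between the slides. Lef1 read -1.57 and -0.68 in the Six2Cre knockouts, against -1.60 and -0.40 in their controls, and -1.01 in the CreER knockout, against -0.83 in its control. Ctnnb1 read 4.61 and 4.27 in the Six2Cre knockouts, against 4.53 and 4.13 in their controls, and 4.04 in the CreER knockout, against 4.24 in its control. The Six2Cre groups overlapped for all 3 of these genes. Axin1, the scaffold of the β-catenin destruction complex, and Tcf7l2, another transcription factor of the pathway, differed by -0.20 and -0.03 in the Six2Cre line.

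Counted over the 49 genes, the Six2Cre knockout arrays both lay below both control arrays for 15 (30.6%), against 12.6% of all features, and above them for 9 (18.4%), against 17.6%. The share above is thus close to the background. For 28 of 49 genes the Six2Cre difference was under 0.5 log2 in size, and 35 were neither lower nor higher in both slide pairs. Of 16 genes with more than 1 probe, 13 had several measured probes, and Lgr4 was the 1 whose probes differed in sign.

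The CreER pair has 1 array a group and no test. Its 2-fold shares were taken over the 25926 features well above background on at least 1 CreER array. In this pair 2 of 49 Wnt genes (4.08%) were at least 2-fold lower, namely Dkk1 and Wnt6, against 2.21% of those features. As many, Wnt7a and Wnt8b, were at least 2-fold higher (4.08%), against 1.38%. At least 0.5 log2 lower in both Six2Cre slide pairs and in the CreER pair were Dkk1, Lgr5, Wnt6 and Wnt10a, 4 of 49 (8.16%), against 1.16% of all features. With median centring Wnt10a fell short of 0.5 log2 on slide 1. Higher in all 3 were Sfrp4, Rspo2 and Wnt2b (6.12%), against 1.35%, with Wnt2b not well above background in the CreER knockout. A limma fit of genotype over both lines, with line and slide as terms, called 0 of 49 Wnt genes and 0 of 26395 features (0%), with an unadjusted p under 0.05 for 14 and 2556; Dkk1 had the lowest adjusted p of the Wnt genes, with a difference of -1.83 (SE 0.13, limma adjusted p = 0.213). The difference between the lines was tested in limma by subtracting the Six2Cre difference from the CreER difference: 0 of 49 Wnt genes and 0 of 26395 features (0%) passed, and at an unadjusted p under 0.05 there were 0 Wnt genes and 617 features.

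**Figure D3:**
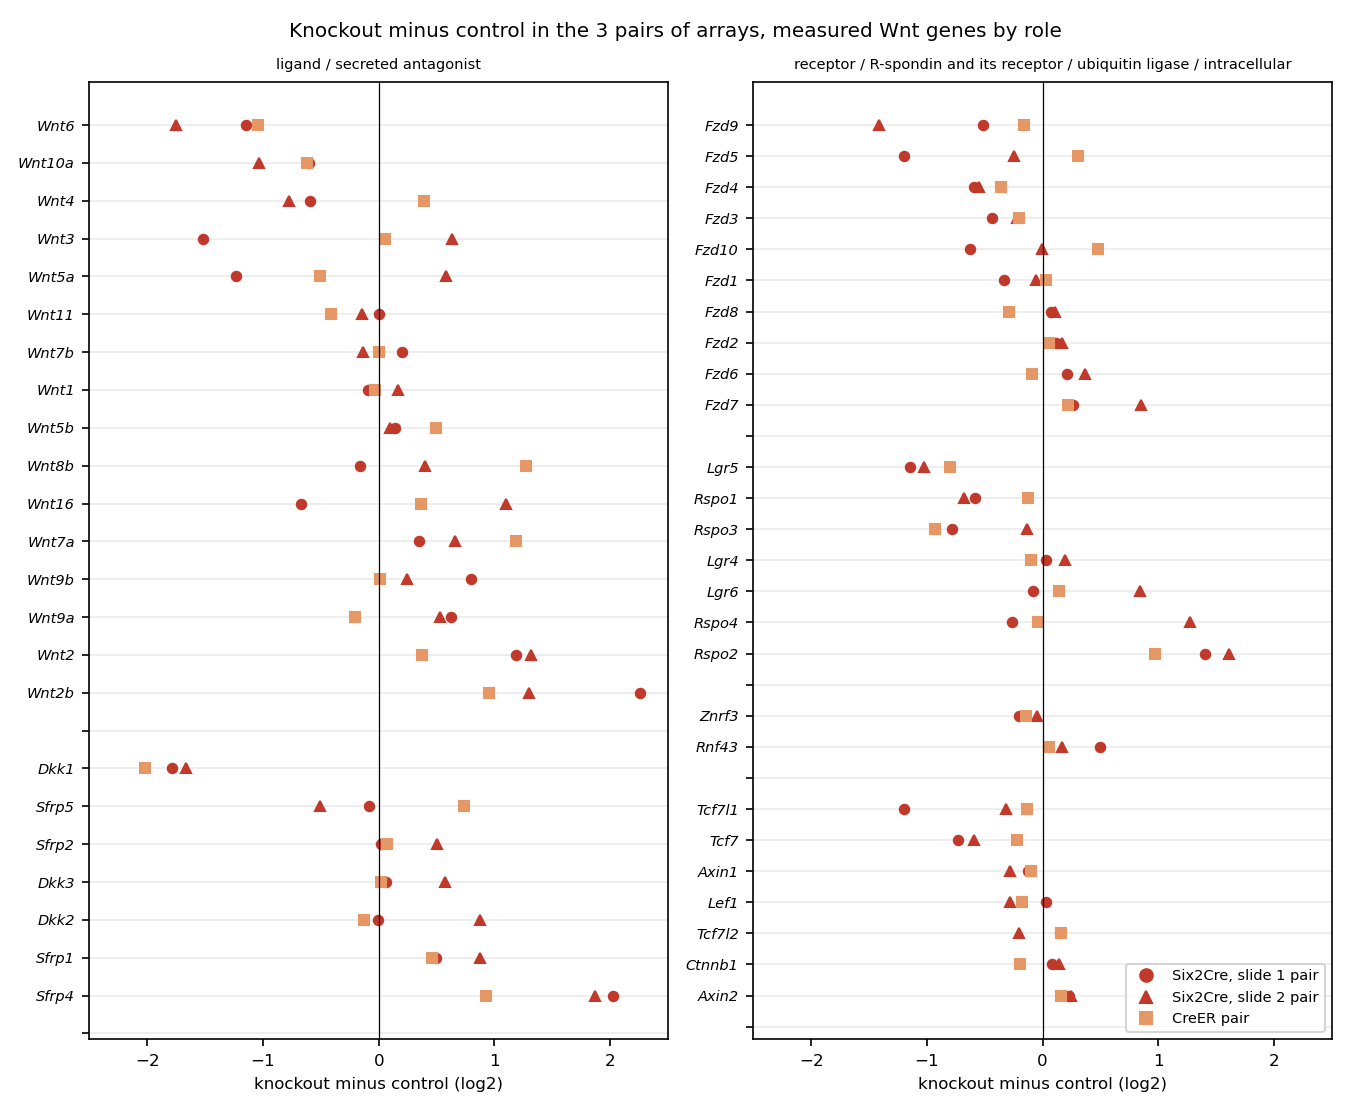
Knockout minus control (log2, horizontal axis) for the 49 measured Wnt genes, ordered by role; circles are the Six2Cre pair of slide 1, triangles the Six2Cre pair of slide 2 and squares the CreER pair, 1 array against 1 in each. Dkk1, Lgr5, Wnt6 and Wnt10a have all 3 points at least 0.5 log2 to the left of 0. Sfrp4, Rspo2 and Wnt2b have all 3 at least 0.5 log2 to the right, with Wnt2b not well above background in the CreER knockout. Other genes, such as Fzd4 and Axin2, also have all 3 points on 1 side, though not all that far from 0. For Wnt4 the square and the other points lie on opposite sides.

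The other genes of the pathway, 63 measured of 68 listed (co-receptors, β-catenin destruction complex, planar polarity genes and further targets), showed no common shift: the median was -0.06 in the Six2Cre line and 0.01 in the CreER pair. With limma 0 of the 63 passed in the Six2Cre line, and 4 had an unadjusted p under 0.05, against 1666 of 26395 features. With the slide block and trend 2 were called lower, against 1.22% of all features, and 2 higher, against 1.15%. Lower in both slide pairs were 2 of 63, against 3.88% of all features. Sostdc1, a secreted inhibitor that binds Lrp co-receptors and BMPs, read -0.42 and -0.43 in the Six2Cre knockouts, against 0.94 and 1.32 in their controls. Myc, a target gene, differed by -1.17 on slide 1 and -0.96 on slide 2, though its arrays overlapped between the groups because the slides differed. Higher in both were 4 of 63, against 5.77% of all features, so both counts were near the share over all features. Ccn4, a secreted matrix protein that is a Wnt target, differed by 1.26 and 0.82. Dact1, which binds Dishevelled, differed by 0.59 and 1.29. Cthrc1, a secreted protein of the planar polarity branch, differed by 0.75 and 0.80, and Gpc3, a cell surface proteoglycan, by 0.57 and 0.57. In the CreER pair these 6 differed by -0.38 to 0.47.

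Genes known to depend on Wnt9b or Wnt4 in nephron progenitors were set beside these, together with markers of the progenitors. Of 14 measured, 8 were lower in both slide pairs, against 3.88% of all features, and 0 were higher, against 5.77%. Cited1, a progenitor gene that Wnt9b maintains, read -1.18 and -0.62 in the Six2Cre knockouts, against 2.88 and 3.66 in their controls, and 1.05 in the CreER knockout, against 3.90 in its control. Amph, another Wnt9b target, differed by -0.96 on slide 1, -1.07 on slide 2 and 0.39 in the CreER pair. Not every gene of the list was lower by that much: Pla2g7 differed by -0.30 on slide 1 and -0.07 on slide 2, and Tafa5 by 0.07 and -0.04. Lhx1 and Fgf8, which act with Wnt4 in the first nephron epithelium, differed by -1.84 and -0.95 on slide 1 and by -1.35 and -1.13 on slide 2. The median of the 14 was -0.88 in the Six2Cre line and -0.12 in the CreER pair. Pax8, which is induced at the same step, differed by 0.04 on slide 1 and -0.05 on slide 2. This list holds Six2 and Sall1, so it is not independent of the deletion. Cited1, Six2 and Pax2 are also among the nephron progenitor markers below, so the counts of the 2 lists are not separate.

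Markers of several cell types differed along with them. Beside the counts below, 3.88% of all features were lower in both slide pairs and 5.77% were higher. Of 10 nephron progenitor markers 7 were lower in both slide pairs. Their summed signal was 18.2 and 18.3 in the Six2Cre knockouts, against 41.1 and 48.1 in their controls. In the CreER pair the sum was 32.2 in the knockout, against 48.3 in the control. Cited1, at -2.85, had the largest CreER difference of these markers. Their median CreER difference was -0.24, with 6 lower and 4 higher. Of 12 stromal markers 9 were higher, with sums of 234 and 215 in the Six2Cre knockouts, against 160 and 138 in their controls, and 139 in the CreER knockout, against 122 in its control. Of 7 macrophage markers 6 were higher, with sums of 3.65 and 4.93 in the Six2Cre knockouts, against 2.29 and 3.03 in their controls, and 4.05 in the CreER knockout, against 3.18 in its control. Of 11 ureteric bud markers 1 was lower in both slide pairs, and 8 had a Six2Cre difference below 0, with a median of -0.18 over the 11. Krt8, Krt18 and Calb1 were higher, with Six2Cre differences of 0.41, 0.50 and 0.63. The summed signal of the list was 109 and 91.8 in the Six2Cre knockouts, against 72.6 and 81.6 in their controls, and 93.4 in the CreER knockout, against 87.1 in its control. Of 5 erythroid markers 1 was higher in both slide pairs. Their sums were 355 and 340 in the Six2Cre knockouts, against 310 and 278 in their controls. In the CreER pair the erythroid sum was 330 in the knockout, against 190 in the control, and all 5 markers were higher in the knockout. The part of these markers in the Wnt gene differences was not tested.

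**Figure D4:**
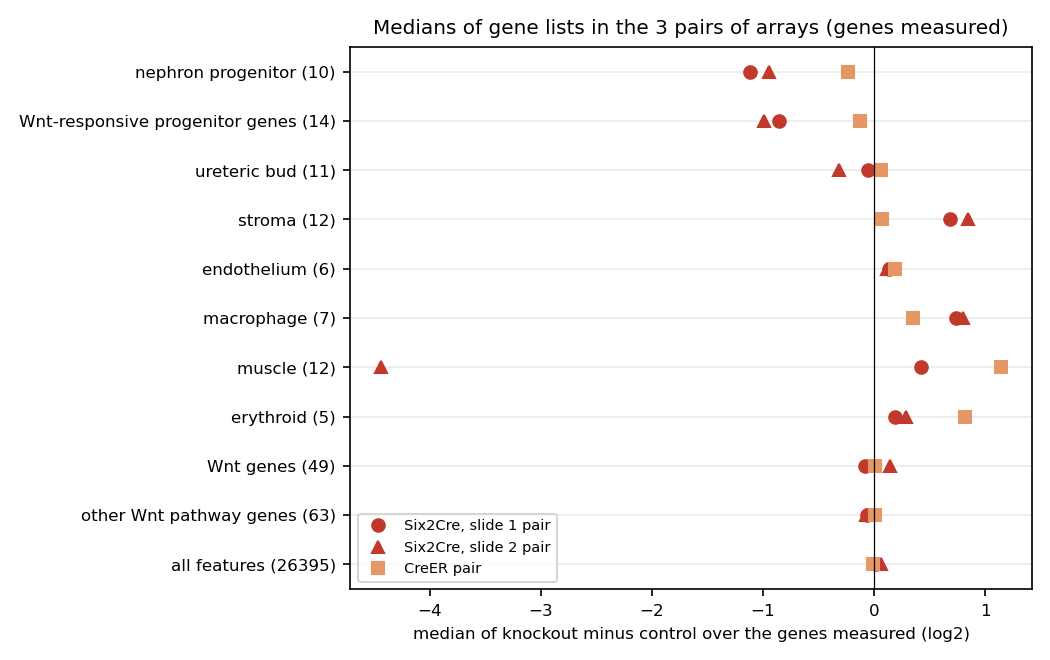
Median of knockout minus control (log2, horizontal axis) over the measured genes of each list, with the number measured in brackets; circles are the Six2Cre pair of slide 1, triangles the Six2Cre pair of slide 2 and squares the CreER pair. The Wnt genes lie near 0 in all 3 pairs (-0.08, 0.14 and 0.01), while the nephron progenitor list lies near -1 in the Six2Cre pairs and the muscle list is at -4.43 on slide 2.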

How the data were processed

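RNA (0.25 ug per sample, per the labels' protocols) from 6 embryonic kidney samples was labelled with Cy3 and hybridised to one-colour arrays. The authors deposited scanner output whose processed intensity per spot, per the file headers background-corrected by Feature Extraction 10.5.1.1, was used. The deposited series table holds the same processed intensities, not on a log2 scale: 99.7% of its values matched within a relative tolerance of 0.001. Here log2 intensity minus the array's 75th percentile was taken, flagged spots and controls were left out, and spots of a probe were averaged. Of 41174 probes, 24999 were named through their RefSeq accession (annotation of GRCm38.p6). The probes carry coordinates of another build, so no array coordinates are printed. Probes well above background on at least 2 arrays were kept, with the brightest for each gene, which gave 26395 features, and no probe was saturated. Of these features 15235 were named genes and 11160 were transcripts left without a gene name. Shares over all features include both kinds, while the Wnt genes are all named.

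A limma 3.58.1 fit (R 4.3.3) over 4 groups gave two-sided p-values with Benjamini-Hochberg adjustment over all features at 0.05, with 2 residual degrees of freedom; the lone CreER arrays are assumed to vary like the Six2Cre groups. The code was checked on simulated data. Slide and scan batch coincide. Genes given on all arrays were those at least 0.5 log2 apart in the same direction in both slide pairs without overlap of the groups, or at least 2-fold apart in the CreER pair; genes of a known role in kidney development were added. Members, gene lists and tests were chosen with earlier results of these data known. The number of arrays limits precision, and an exact permutation test of 2 against 2 cannot go below p = 0.333. Alternatives were background correction, normalization, filters, probe choice, slide as a block and each Six2Cre array left out. Python 3.11.15 with matplotlib 3.10.9 drew the plots.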

Additional observations from a re-analysis of the deposited data

Results flagged for a closer look

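For 10 of the 49 measured Wnt genes, the Six2Cre pairs of both slides differed in the same direction and the CreER pair in the opposite one. The CreER difference minus the Six2Cre difference was 1.07 log2 for Wnt4 (SE 0.65), 1.03 for Sfrp5 (SE 0.45), 1.03 for Fzd5 (SE 0.80), 0.79 for Fzd10 and 0.22 for Fzd1. It was -0.78 for Wnt9a (SE 0.52), -0.38 for Fzd6, -0.38 for Fzd8, -0.30 for Ctnnb1 and -0.21 for Lgr4. For Fzd10 the slide 2 difference was -0.01. A second Fzd5 probe gave -0.38 on slide 1, -0.01 on slide 2 and -0.15 in the CreER pair, so it had the same direction in each. Other Lgr4 probes gave -0.07 and -0.63 on slide 1, and 0.16 and 0.35 on slide 2, so their slides differed in direction. In limma's test of the difference between the lines the adjusted p was 1.00 for each of the 10, and 0 of 26395 features passed, so the lines were not shown to differ for these genes.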

How the results depend on the processing

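The number of features called in the Six2Cre line was 0 as reported, 128 with median centring (32 higher and 96 lower) and 627 with slide as a block and a robust trend (304 higher and 323 lower). Over both lines it was 0 as reported, 47 with normexp (23 higher and 24 lower), 59 with median centring (41 higher and 18 lower) and 12 with a robust trend (6 higher and 6 lower). In each of these, Dkk1 was the 1 Wnt gene called, with adjusted p of 0.0157, 0.0309 and 0.0228. The difference between lines gave 0 under every setting run.

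Of 49 Wnt genes, those lower in both slide pairs numbered 9 as reported (3.88% of all features) and 4 with median centring (3.43%). They numbered 3 at 1 log2 or more (1.68%) and 16 on slide 1 alone (17.3%). Those higher numbered 5 as reported (5.77% of all features) and 16 on slide 2 alone (16.7%). The counts by slide alone and at 1 log2 were chosen after seeing the data. Counts in both slide pairs cannot be given with an array left out. The median Six2Cre difference of the Wnt genes was 0.037, and -0.164 to -0.022 with a Six2Cre array left out, the lowest without control 2, which holds the muscle markers.

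Of 376 recomputed Six2Cre differences of 29 named genes, 352 kept direction and side of the threshold, 5 passed it with the slide block and robust trend, and 19 changed sign, in 10 genes. With a Six2Cre array left out, their lowest and highest values were -0.31 and 0.78 for Axin2, -0.087 and 0.31 for Ctnnb1, -0.73 and 0.48 for Lef1, -0.26 and 0.49 for Lgr4, -0.13 and 0.65 for Sfrp2, -0.98 and 0.33 for Wnt5a, -0.26 and 0.12 for Wnt11, -0.22 and 0.28 for Wnt7b, -0.31 and 0.55 for Wnt8b, and -0.62 and 0.36 for Znrf3. Wnt7b was also -0.0096 with normexp. Leaving out an array unbalances the slides between the groups, and other causes were not tested.

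The labels' replicate numbers, which the Six2Cre knockouts (7 and 9) and controls (5 and 2) do not share, gave no pairs. The SE given with each gene's Six2Cre difference comes from the fit without slide. The slides gave the pairs used in their place: slide as a block gave 0 calls, and 627 with the robust trend.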
